A study of Mus musculus with 4 samples.

Results

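The RNAs of 10 neuropeptide genes were followed through the nuclei of the mouse hippocampus: Sst, Npy, Vip, Cck, Penk, Pdyn, Tac1, Tac2, Crh and Cort. They were taken from a fixed list by Ensembl ID, and all 10 of the 10 were found among the 55422 gene IDs of the deposited matrices. Nuclei of adult mice were profiled by single-nucleus RNA sequencing, in which each droplet carries a barcode and each captured molecule a unique molecular identifier (UMI). The 2 Control libraries came from Kat6a-f/f mice, in which loxP sites flank Kat6a, a histone acetyltransferase gene. The 2 Kat6a-cKO libraries came from mice with NEX-cre and Kat6a-f/f, so that the floxed alleles are shared by both groups and NEX-cre is found in Kat6a-cKO only. NEX-cre is expressed from the Neurod6 locus of forebrain excitatory neurons, and the deletion is therefore not directed to inhibitory neurons, the main source of most of these peptides. The number of animals behind each library was not given in the labels, so the p-values measure the spread between libraries.

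Neuropeptides are cut from larger precursor proteins in the secretory pathway, stored in dense-core vesicles and released during sustained firing, and they act mostly on G-protein-coupled receptors. In the hippocampus they mark types of inhibitory neuron: somatostatin the cells that target distal dendrites, vasoactive intestinal peptide the cells that inhibit other interneurons, cholecystokinin a class of basket cells that carries the cannabinoid receptor Cnr1, and neuropeptide Y the neurogliaform and ivy cells. Cholecystokinin is made by pyramidal cells too, and dynorphin, from the Pdyn precursor, by the granule cells of the dentate gyrus.

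Sst and Cort, which encode somatostatin and the related peptide cortistatin, show how close 2 members come in sequence and whether their reads could be mixed. Both genes have 2 exons and lie on the minus strand, Sst at chr16:23889573-23890958 and Cort at chr4:149125034-149126763 (GENCODE M21, GRCm38). The stretches of 42 coding bases below encode the C-terminal part of each precursor, which becomes the mature peptide, with capitals at the bases that are identical in the pair. The Sst stretch ends at the stop codon and the Cort stretch ends 3 bases before it.
Sst coding end: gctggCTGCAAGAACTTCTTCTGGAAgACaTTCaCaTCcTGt
Cort coding end: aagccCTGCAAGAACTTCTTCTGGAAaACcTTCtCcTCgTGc
Of the 42 bases, 31 matched (73.8%), and no run of 25 bases was shared between the annotated transcripts of any 2 of the 10 members.

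Sst is also the gene in which the cyclic AMP response element, TGACGTCA, was described, the site bound by CREB. The promoter table from RefSeq (GRCm38.p6, 250 bases before to 50 after a gene's start) matched 8 of the 10 members. Penk and Crh were not matched, so their promoters were not searched. TGACGTCA was found on either strand in 1.79% of all 32851 promoters and, among the 8 matched members, in that of Sst. Its core TGACG, which the full site also contains, was found on either strand in 20.8% of all promoters and in those of 5 members (Sst, Vip, Cck, Tac1 and Cort). The windows of 30 bases before the start of the RefSeq entry, which for Sst and Tac1 lie inside the GENCODE gene, are shown on the gene's strand with the match nearest the start in capitals (Tac1 has 2 before the start, the others 1), CGTCA being the core on the opposite strand. They let the members' promoters be compared, and a match is a description of the letters only.
Sst, chr16:23890874-23890903, minus strand: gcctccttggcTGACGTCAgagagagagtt
Vip, chr10:5639127-5639156, plus strand: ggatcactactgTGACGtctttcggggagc
Cck, chr9:121495724-121495753, minus strand: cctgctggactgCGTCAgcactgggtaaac
Tac1, chr6:7555006-7555035, plus strand: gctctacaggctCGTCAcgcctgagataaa
Cort, chr4:149126764-149126793, minus strand: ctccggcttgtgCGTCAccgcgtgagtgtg

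The libraries held 171323466 to 186897245 counts, and 7613 to 8144 nuclei per library remained at a minimum of 5000 UMIs after doublets were removed. Median depth was 13706 to 14381 UMIs per nucleus. Of 32471 distinct nucleus barcodes, 101 occurred in more than 1 library. Kat6a was at 63.0 and 66.3 CPM (counts scaled to a common total, so that libraries and classes can be compared) in Control CA3 nuclei and 59.4 and 65.1 in Kat6a-cKO, and these counts do not separate deleted from intact transcripts. An entry named for cre had 0 and 0 counts in the Control libraries and 158 and 150 in Kat6a-cKO, of which inhibitory nuclei held 0 and 2. Classes of nuclei were named from marker genes with the 10 members left out of the clustering. Gad2, which makes GABA, was at 435 to 492 CPM in inhibitory nuclei and 2.78 to 4.32 in CA1, and Rgs14, a CA2 gene, at 22.7 to 28.6 CPM in CA2 nuclei and 2.73 to 4.37 in CA3.

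Most members were high in 1 type of inhibitory nucleus. Levels in CPM were taken from the UMI counts of a class, summed per library, and are given over all 4 libraries, and a class is called highest or next among 13 named classes. Cajal-Retzius nuclei, 22 to 34 per library, were left out of this order and of the tests, which asked for at least 30 nuclei in every library. Unnamed clusters are outside the order too, and for Npy, Cck, Tac1, Tac2 and Crh some of them overlapped with the highest class or lay above the next. Sst was at 577 and 633 CPM in the Sst-type nuclei of Control and at 370 and 546 CPM in those of Kat6a-cKO, averaging 531 ± 114 CPM (SD, n = 4). The next class, Parvalbumin-type nuclei, was at 50.6 ± 13.7 CPM, 10.5-fold lower, and the libraries of these classes did not overlap. An unnamed inhibitory cluster lay between them, at 203 to 314 CPM. All other named classes were at 35.6 CPM or less on average, down to 7.16 ± 1.19 CPM in CA3.

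Cort was highest in Parvalbumin-type nuclei, at 13.4 and 7.56 CPM in the Control libraries and 8.20 and 6.78 CPM in the Kat6a-cKO libraries. Sst-type nuclei followed at 3.86 ± 1.25 CPM and did not overlap with them, so that the pair of related peptide genes had different highest classes among the named ones. An unnamed inhibitory cluster of 13 to 16 nuclei per library was at 3.74 and 4.03 CPM in the Control libraries and 21.8 and 7.61 CPM in the Kat6a-cKO libraries, from 1 to 6 Cort counts. Another, of 48 to 53 nuclei, was at 7.90 and 3.69 CPM in the Control libraries and 4.03 and 7.23 CPM in the Kat6a-cKO libraries, from 4 to 9 Cort counts, and overlapped with both the Parvalbumin-type and the Sst-type. It is the same unnamed cluster that lay between these 2 classes for Sst, so both genes were present there. Tac1, the precursor gene of substance P and neurokinin A, was also highest in Parvalbumin-type nuclei, at 40.9 and 23.1 CPM in the Control libraries and 29.8 and 34.3 CPM in the Kat6a-cKO libraries. The next class for Tac1 was at 5.97 ± 3.69 CPM, with no overlap. With a minimum of 10000 UMIs per nucleus, the cluster named Parvalbumin-type held 24 to 29 nuclei per library. Tac1 in this cluster was at 3.50 CPM and Cort at 5.87 CPM. The Parvalbumin-type class above held 109 to 154 nuclei per library at median depths of 16097.5 to 19223 UMIs. Most of its nuclei thus pass this minimum, and the smaller cluster cannot hold them all. Which nuclei the cluster does hold was not tested.

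Vip-type nuclei were the highest class for 4 members. Vip itself was at 488 and 462 CPM there in the Control libraries and 307 and 542 CPM in the Kat6a-cKO libraries, averaging 450 ± 101 CPM, and Cnr1-rich nuclei followed at 53.3 ± 24.9 CPM. Penk, the enkephalin precursor gene, was at 45.2 and 74.3 CPM in the Control libraries and 25.0 and 44.7 CPM in the Kat6a-cKO libraries. Its next class, CA1, was at 3.98 ± 1.07 CPM and did not overlap. The few Cajal-Retzius nuclei were at 12.6 and 20.6 CPM in the Control libraries and 4.602 and 8.78 CPM in the Kat6a-cKO libraries, from 1 to 4 Penk counts. A noncoding gene, A830012C17Rik, overlaps Penk on the opposite strand, and without a stated counting strand reads in the overlap cannot be assigned to either.

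Crh, the corticotropin-releasing hormone gene, was at 8.79 and 9.70 CPM in the Vip-type nuclei of Control and at 16.7 and 15.8 CPM in Kat6a-cKO, resting on 6 to 16 counts per library. Cnr1-rich nuclei followed at 3.06 ± 2.24 CPM. Cajal-Retzius nuclei held 3 Crh counts in Control replicate 1 (9.42 CPM) and 0 in the other libraries. Tac2, the neurokinin B precursor gene, was at 36.4 and 6.46 CPM in the Vip-type nuclei of Control and 25.0 and 25.0 CPM in Kat6a-cKO. Its levels overlapped with those of Cnr1-rich nuclei (12.2 ± 4.91 CPM), and the third class was at 1.02 CPM. The low Control library held 4 Tac2 counts in 53 Vip-type nuclei.

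Npy was spread over several inhibitory types. It was at 70.4 ± 31.9 CPM in Sst-type nuclei, 55.7 ± 17.4 in Lamp5-type nuclei, which include neurogliaform cells, 40.2 ± 10.1 in Cnr1-rich nuclei and 23.9 ± 10.3 in Parvalbumin-type nuclei. Neighbours in this order overlapped between libraries. Sst-type nuclei were at 40.5 and 105 CPM in the Control libraries and 46.3 and 90.2 CPM in the Kat6a-cKO libraries, and Parvalbumin-type nuclei at 34.2 and 25.3 CPM and at 9.69 and 26.3 CPM. In both classes the groups overlapped. Vip-type nuclei held 6.59 ± 4.38 CPM and CA2 nuclei, the lowest, 2.22 ± 1.21 CPM.

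Pdyn was highest in dentate granule nuclei, at 8.06 and 9.63 CPM in the Control libraries and 6.32 and 7.81 CPM in the Kat6a-cKO libraries (227 to 385 counts per library). Sst-type nuclei followed at 3.59 ± 2.35 CPM from 2 to 10 counts and overlapped. An unnamed cluster of 38 to 65 nuclei per library overlapped with dentate granule nuclei too, at 6.94 and 7.13 CPM in the Control libraries and 9.66 and 9.96 CPM in the Kat6a-cKO libraries, from 5 to 7 Pdyn counts. CA3 nuclei were the lowest, at 0.178 ± 0.130 CPM.

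Cck had no class that stood apart. Cnr1-rich nuclei were highest, at 232 and 194 CPM in the Control libraries and 113 and 185 CPM in the Kat6a-cKO libraries. Astrocytes followed at 140 ± 25.0 CPM, then oligodendrocyte precursors at 116 ± 21.5, oligodendrocytes at 114 ± 37.2, CA1 at 111 ± 34.1, CA2 at 104 ± 28.9, dentate granule nuclei at 90.5 ± 21.4 and CA3 at 79.2 ± 30.3. The lowest class, Parvalbumin-type, was at 46.1 ± 7.19 CPM, and every pair of neighbours in the order of the 13 classes overlapped.

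**Figure D1:**
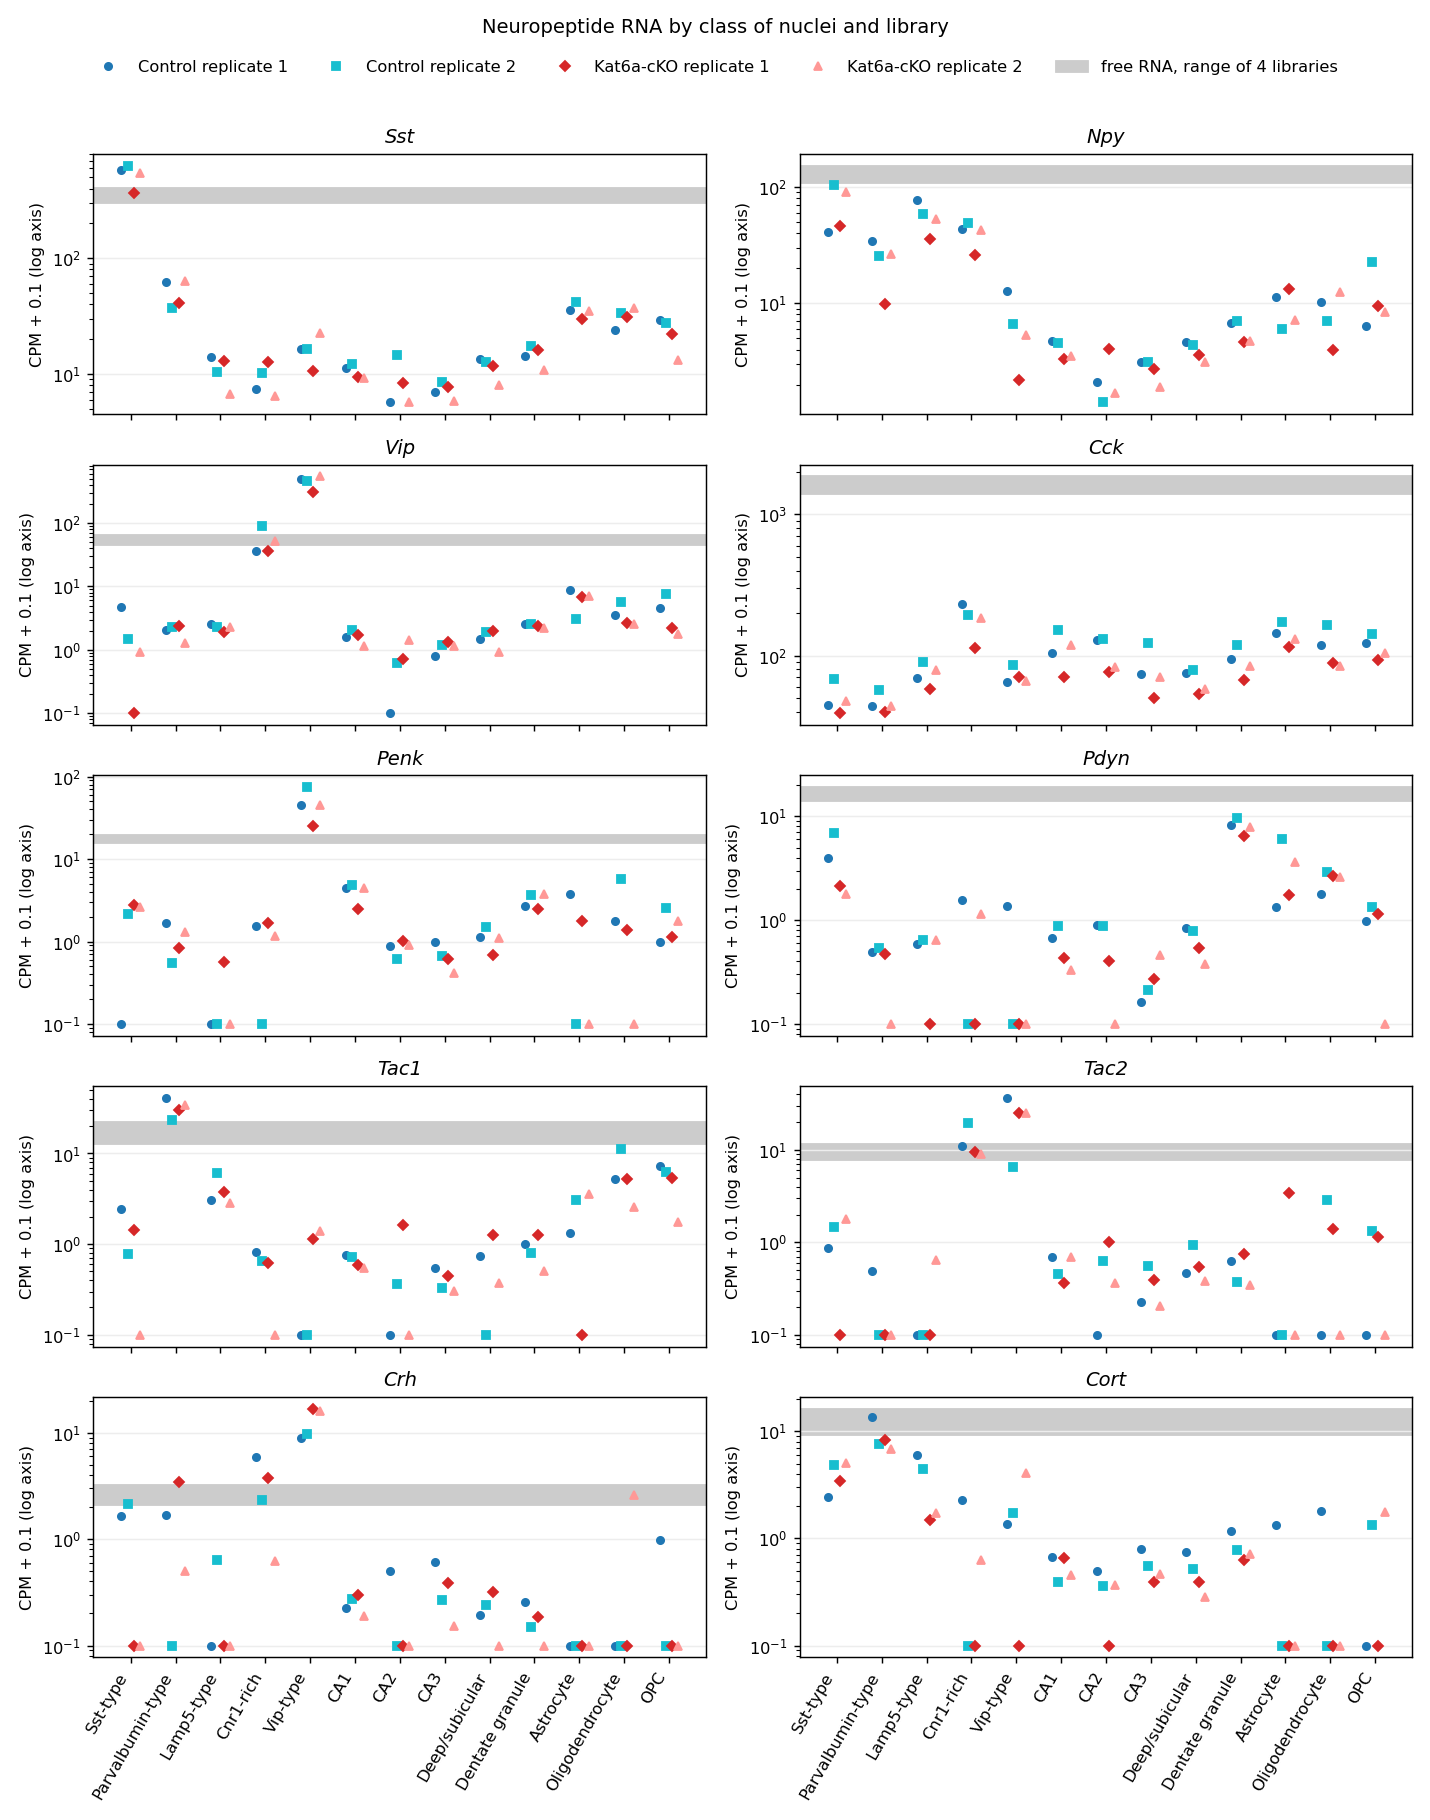
Level of each of the 10 members (CPM plus 0.1, log axis) in 13 classes of nuclei, 1 point per library; the grey band is the range of the member's level in free RNA over the 4 libraries. Sst, Vip, Penk, Tac1, Crh and Cort have a class whose points lie above those of every other class, whereas the points of Cck lie close together under the band in every class.

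The same RNAs were abundant outside nuclei. Barcodes of 100 to 900 UMIs, most of which are droplets without a nucleus, numbered 70816 to 73544 per library and were summed as free RNA. Cck was at 1553 and 1857 CPM in the free RNA of Control and at 1384 and 1584 CPM in that of Kat6a-cKO, above every class in every library. Sst was at 332 and 341 CPM in the Control libraries and 406 and 301 CPM in the Kat6a-cKO libraries, above every class but the Sst-type, whose level it exceeded in Kat6a-cKO replicate 1. Npy was at 152 and 129 CPM in the Control libraries and 122 and 109 CPM in the Kat6a-cKO libraries, and each library's free RNA was above each of its classes.

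Over all 10 members, free RNA was above the highest class in all 4 libraries for 4 members (Npy, Cck, Pdyn and Cort). For Pdyn it was at 13.9 to 19.1 CPM against 6.32 to 9.63 CPM in dentate granule nuclei, and for Cort at 9.23 to 16.2 CPM against 6.78 to 13.4 CPM in Parvalbumin-type nuclei. Vip, at 45.7 to 64.1 CPM, and Penk, at 15.5 to 19.4 CPM, were lower in free RNA than in Vip-type nuclei in every library. The same held for Crh, at 2.10 to 3.23 CPM in free RNA.

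Relative to the sum of all nuclei, Cck was 17.7-fold higher in free RNA (geometric mean over 4 libraries), Npy 17.7-fold, Sst 16.9-fold and Cort 14.05-fold. These ratios exceeded those of 98.4%, 98.4%, 98.2% and 97.1% of 16176 genes with at least 50 counts in each library. Tac2 was 11.8-fold, Tac1 11.5-fold, Vip 9.62-fold, Crh 8.86-fold, Penk 6.58-fold and Pdyn 5.48-fold higher. The median over those genes was 1.13, and over the 2561 protein-coding genes among them that span less than 10 kb it was 4.89; all members but Pdyn (13280 bases) and Tac1 (10956 bases) span less than 10 kb. Against these short genes alone, the ratios of Cck, Npy, Sst and Cort exceeded those of 92.0%, 92.0%, 91.1% and 86.0%, and those of the other 6 members 54.0% to 80.7%. In such sums fewer cells of a type and less RNA per cell cannot be told apart.

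**Figure D2:**
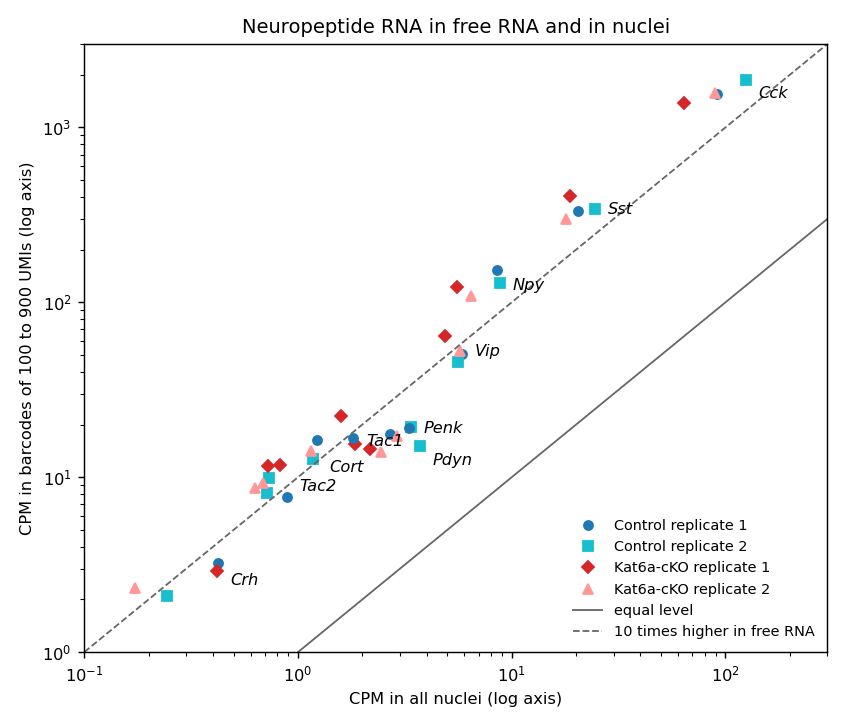
Level of each member in the sum of all nuclei (x axis, CPM, log axis) and in barcodes of 100 to 900 UMIs (y axis, CPM, log axis), 1 point per library; the solid line marks equal levels and the dashed line a 10 times higher level in free RNA. All points lie above the solid line, with Cck, Npy, Sst and Cort above the dashed line in every library.

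The free RNA share of each class was estimated from marker genes of other classes, and its product with a member's free RNA level gave the level expected with no RNA of the nuclei's own. The share was 2.16% to 6.84% in the neuronal classes, 14.6% to 23.5% in astrocytes and oligodendrocytes and 31.6% to 38.3% in oligodendrocyte precursors. Because the markers can be weakly expressed in a class, the share is an upper estimate. Of 130 pairs of a member and a class, 24 exceeded the expected level at least 2-fold in every library.

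These pairs followed the inhibitory types. Vip in Vip-type nuclei was 176 times its expected level on average, Crh 104 times, Tac2 56.6 times and Penk 52.3 times. Tac1 in Parvalbumin-type nuclei was 65.1 times and Cort 25.4 times its expected level, and Sst in Sst-type nuclei was 39.8 times. Among excitatory nuclei, Pdyn in dentate granule nuclei was 8.97 times and Penk in CA1 5.90 times its expected level, and Penk in dentate granule nuclei was 3.08 times it (2.29 to 4.09 over the libraries).

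Cck reached its largest excess in Cnr1-rich nuclei, 3.24 times the expected level, followed by CA2 (2.57), CA1 (1.80) and CA3 (1.62). In dentate granule nuclei Cck was at 0.93 to 1.03 times the expected level in the 4 libraries, in deep-layer or subicular nuclei at 0.87 to 1.16 times, in astrocytes at 0.54 times and in oligodendrocyte precursors at 0.21 times on average. Because the share is an upper estimate, these ratios cannot show that a class lacks Cck of its own. The members next in free RNA level, Sst, Npy and Vip, were at 0.73, 0.77 and 0.76 times their expected levels in dentate granule nuclei, against 0.97 for Cck. In deep-layer or subicular nuclei they were at 0.82, 0.74 and 0.70 times, against 1.03 for Cck. The other members lay on both sides of Cck. In dentate granule nuclei Cort was at 1.07 times, Tac1 and Tac2 at 0.82 and Crh at 0.42 times, beside the higher Pdyn and Penk. In deep-layer or subicular nuclei Penk was at 1.37, Tac2 at 1.32 and Crh at 1.10 times, and Pdyn at 0.83, Cort at 0.78 and Tac1 at 0.74 times. Whether Cck differs from the other members there was not tested. Sst was at 0.70 to 0.82 times its expected level on average in CA1, CA3, dentate granule, deep-layer, Lamp5-type and Cnr1-rich nuclei.

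**Figure D3:**
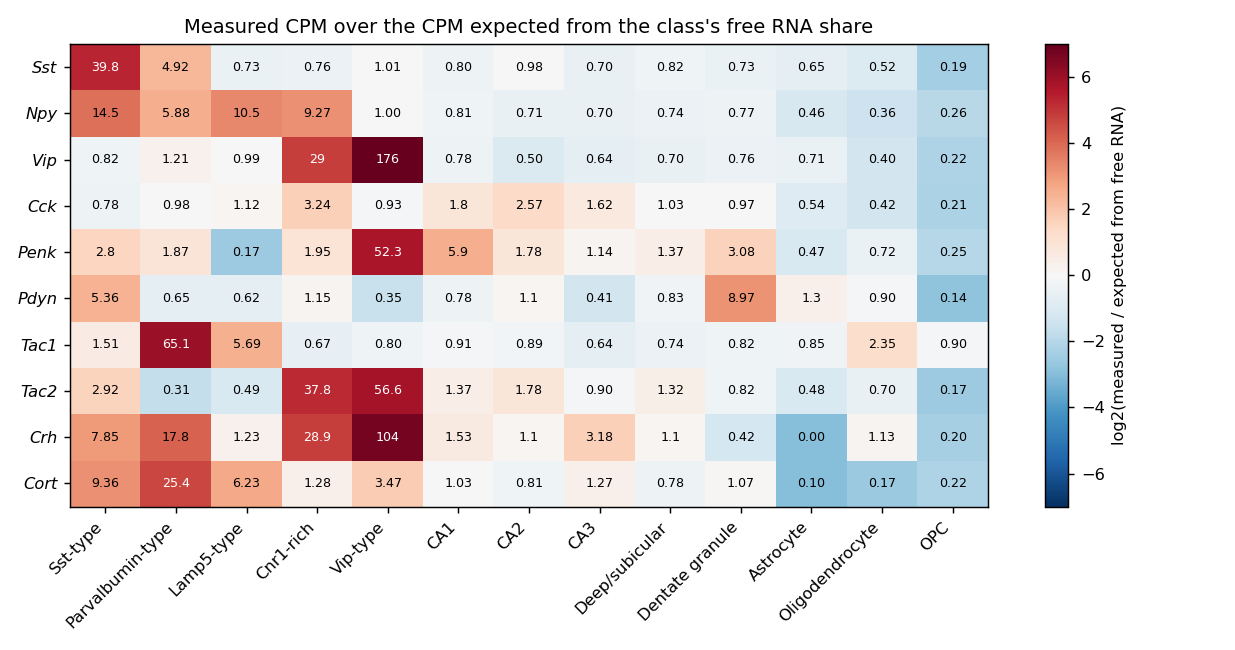
Mean over 4 libraries of the measured CPM divided by the CPM expected from the class's free RNA share, for 10 members and 13 classes; the colour gives the log2 of the ratio, with ratios under 0.125 drawn at 0.125. Vip, Crh, Tac2 and Penk in Vip-type nuclei, Tac1 and Cort in Parvalbumin-type nuclei and Sst in Sst-type nuclei hold the largest ratios of their rows, and the Cck row lies between 0.21 and 3.24.

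Counts per nucleus showed how many nuclei carried a member. Each nucleus was thinned to 5000 UMIs so that classes of different depth could be compared. Sst was counted in 66.0% to 87.3% of Sst-type nuclei per library (90.0% to 98.8% before thinning) and in 4.14% to 6.05% of CA1 nuclei (13.6% to 17.4% before). CA1 nuclei serve for comparison, and whether they hold Sst RNA of their own was not tested. Median depths were 14165 to 16967 UMIs in Sst-type and 16897.5 to 18515 in CA1 nuclei. Vip was counted in 52.1% to 65.7% of Vip-type nuclei (59.6% to 70.0% before) and in 0.573% to 0.866% of CA1 nuclei (1.88% to 3.39% before), at median depths of 9564 to 10814 UMIs in Vip-type nuclei.

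Cck was counted in 42.4% to 59.7% of Cnr1-rich nuclei (76.2% to 80.6% before thinning), 31.6% to 50.8% of CA1 nuclei (66.5% to 87.6%) and 35.8% to 51.6% of oligodendrocyte precursors (44.6% to 60.5%), and the range in the glial class overlapped with those of both neuronal classes. Median depths in Cnr1-rich nuclei and oligodendrocyte precursors were 17764 to 21715 and 5994 to 6181 UMIs. Penk was counted in 8.51% to 22.6% of Vip-type nuclei and 0.138% to 0.536% of CA3 nuclei, Tac1 in 10.1% to 22.4% of Parvalbumin-type and 0.260% to 0.495% of CA1 nuclei, and Pdyn in 3.17% to 4.37% of dentate granule nuclei and 0% to 0.250% of CA3 nuclei.

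At a cut of 3 UMIs after thinning, few nuclei carried several members at once. Crh passed this cut in 0 inhibitory nuclei, Pdyn in 1, and Penk, Tac1, Tac2 and Cort in 2 each. For these low members the count therefore says little. Over the 4 libraries, 351 of 2448 inhibitory nuclei held at least 3 UMIs of at least 1 member after thinning, and 15 of them (4.27%, 95% Wilson interval 2.61% to 6.93%, counting error only) held at least 3 UMIs of a second. Of these 15 nuclei, 10 were in Control replicate 2, 4 in Kat6a-cKO replicate 2, 1 in Control replicate 1 and 0 in Kat6a-cKO replicate 1. Nuclei with just 1 member numbered 81 and 88 in the Control libraries and 75 and 92 in the Kat6a-cKO libraries. The share thus differed between libraries, a spread that the interval over pooled nuclei leaves out. Vip and Cck were together in 5 nuclei, 4.55% of the 110 with Vip against 1.92% of those without it. Of these, 2 were in Control replicate 2 and 3 in Kat6a-cKO replicate 2. Sst and Npy were together in 4 nuclei, 2.40% of the 167 with Sst against 1.14% of those without it. Here 3 were in Control replicate 2 and 1 in Kat6a-cKO replicate 2. Both nuclei with Penk at this level also held Vip. With 1 UMI in place of 3, 480 of 1470 nuclei (32.7%) held at least 2 members, and with 5 UMIs 2 of 131 (1.53%).

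Genes with the most similar pattern over the 13 classes were named for each member by Pearson's r of mean log2(CPM + 1) among 11356 genes. The classes share their libraries and their free RNA, and the r values are a description. For Sst they were Crhbp (r = 0.87), which encodes a binding protein of corticotropin-releasing hormone, Chrnb3 (0.87) and Lgals1 (0.84). For Cort they included Zfyve9 (0.94) and Lhx6 (0.93), a transcription factor of interneurons from the medial ganglionic eminence, and for Npy they were Champ1 (0.92), Ptprm (0.90) and Reln (0.90), the reelin gene. For Vip they were the thyrotropin receptor gene Tshr (0.95), Gm39185 (0.94) and Gm12153 (0.93), for Tac2 Gm39185 (0.95), Gm12153 (0.93) and Abcb5 (0.90), and for Crh the gastrin-releasing peptide receptor gene Grpr (0.97), Gm12153 (0.93) and Gm39185 (0.93). For Tac1 they were Phlda1 (0.89), Ndufs5 (0.84) and Stard9 (0.84), and for Penk Thy1 (0.89), the overlapping A830012C17Rik (0.89) and Tmc5 (0.86). For Pdyn they were Dsp (0.81) and Calb1 (0.80), genes of granule cells, and Hspb11 (0.80). The nearest genes to Cck, Dhx40 (0.82), Rgma (0.73) and Fkbp5 (0.73), had the lowest leading r of the 10 members but for Pdyn.

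The genotypes were compared with the quasi-likelihood test of edgeR in 13 classes, in all inhibitory nuclei and in all nuclei, to find which members change with the genotype. Of 77 member values that passed the filter on low counts, 1 passed the threshold of an adjusted p of 0.05 over all genes of its fit. This was Cck in CA2, where it was lower in Kat6a-cKO. At an unadjusted p of 0.05 there were 23 of 77 (29.9%), against 7.39% of all values in the 15 fits (4.78% to 10.2% per fit). DESeq2 called 3 of the 77 (3.90%), against 0.494% of all values in the same fits. The log2 fold change was negative for 67 and positive for 10 of the 77 values, while the median over all genes of a fit lay between −0.0063 and 0.0051. The 77 values are not separate measurements, since all nuclei and all inhibitory nuclei contain the classes and free RNA is shared within a library. Groups without overlap are named below as a description only. With 2 against 2 libraries, the smallest p of a two-sided exact permutation test is 0.33.

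Cck in CA2 was at 128 and 130 CPM in Control (322 and 499 counts) and at 75.9 and 82.5 CPM in Kat6a-cKO (248 and 309 counts). The groups did not overlap, and Kat6a-cKO was lower by a log2 fold change of −0.69 ± 0.11 (SE, n = 2 per group; edgeR adjusted p 0.0444). The call was 1 of 2 members tested in CA2, where 10 of 10952 genes were called (0.0913%). The free RNA share of CA2 nuclei was 2.79% and 2.49% in the Control libraries and 2.49% and 2.24% in the Kat6a-cKO libraries, and after subtraction of free RNA the log2 fold change was −0.93 (edgeR adjusted p 0.0429). The summed level of 10 inhibitory marker genes, of which 8 had a count, was 501 and 606 CPM in the CA2 nuclei of Control and 520 and 561 CPM in those of Kat6a-cKO, and that of 10 CA1 marker genes 271 and 398 CPM in the Control libraries and 414 and 410 CPM in the Kat6a-cKO libraries. Of 19 marker lists summed in CA2 nuclei, 4 were higher and 2 lower in Kat6a-cKO with no overlap between the groups. For a single list, such a separation of 2 against 2 libraries gives p = 0.33 in the two-sided exact permutation test. The lists are therefore a description only. The 4 higher lists were CA1, astrocyte (119 and 122 CPM in the Control libraries, 154 and 146 in the Kat6a-cKO libraries), Sst-type (75.9 and 76.6, 102 and 94.8) and Vip-type (476 and 444, 527 and 510). The CA2 list itself was lower, at 506 and 475 CPM in the Control libraries and 457 and 405 CPM in the Kat6a-cKO libraries, as was the dentate granule list, at 1007 and 935 against 921 and 874 CPM. The part of other cells in the Cck difference was not tested. The call was lost with doublets kept (edgeR adjusted p 0.0653), with a minimum of 10000 UMIs (0.129) and at a Leiden resolution of 2 (0.145). It was also lost without either Kat6a-cKO library. The log2 fold changes in these settings were −0.76 to −0.63.

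In the other classes Cck did not pass the threshold. In CA3 it was at 73.8 and 122 CPM in the Control libraries and 50.2 and 70.8 CPM in the Kat6a-cKO libraries, without overlap (log2 fold change −0.68 ± 0.18, edgeR adjusted p 0.289; 4 of 15270 genes called, 0.0262%). Deep-layer or subicular nuclei held 74.8 and 79.2 CPM in the Control libraries and 53.4 and 57.8 CPM in the Kat6a-cKO libraries, also without overlap, at 0.87 to 1.16 times the level expected from free RNA (−0.45 ± 0.09, adjusted p 0.180; 0.00686% of genes called). In dentate granule nuclei Cck was at 94.2 and 118 CPM in the Control libraries and 66.5 and 83.7 CPM in the Kat6a-cKO libraries (−0.48 ± 0.11, edgeR adjusted p 0.153, with 0.354% of genes called). Its level there was 0.93 to 1.03 times that expected from free RNA, which is an upper estimate. CA1 libraries overlapped, at 104 and 153 CPM in the Control libraries and 70.1 and 118 CPM in the Kat6a-cKO libraries (−0.43 ± 0.24, adjusted p 0.694; 0.0118% of genes called). Cnr1-rich libraries did not overlap, and the log2 fold change was −0.50 ± 0.19 (adjusted p 0.870; 0% of 9995 genes called).

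Over all 15 fits Cck had a negative log2 fold change, from −0.69 to −0.13. Control replicate 2 was the highest library in 14 of the 15 sets of nuclei and Kat6a-cKO replicate 1 the lowest in 13. Free RNA held 35920796 and 38635682 counts in the Control libraries and 29301479 and 27848331 in the Kat6a-cKO libraries, and the free RNA share was 6.53% and 6.84% in Control against 4.74% and 5.14% in Kat6a-cKO in dentate granule nuclei. After subtraction of free RNA, dentate granule nuclei held 0 and 0 Cck counts in the Control libraries and 37 and 74 in the Kat6a-cKO libraries, which turned the direction. The subtracted share is an upper estimate, so these remainders can be too low. Deep-layer or subicular nuclei were left with 110 and 0 counts in the Control libraries and 102 and 0 in the Kat6a-cKO libraries. CA3 nuclei were left with 30.4 and 58.9 CPM in the Control libraries and 17.3 and 21.4 CPM in the Kat6a-cKO libraries, without overlap. Single libraries moved the Cck difference. Without Control replicate 2, the log2 fold change was −0.31 in CA3 and −0.34 in dentate granule nuclei, against −0.68 and −0.48 with all 4 libraries. Without Kat6a-cKO replicate 1, it was −0.11 in CA1 and −0.21 in Cnr1-rich nuclei, against −0.43 and −0.50. A fit with 1 library in a group holds no spread for that group.

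**Figure D4:**
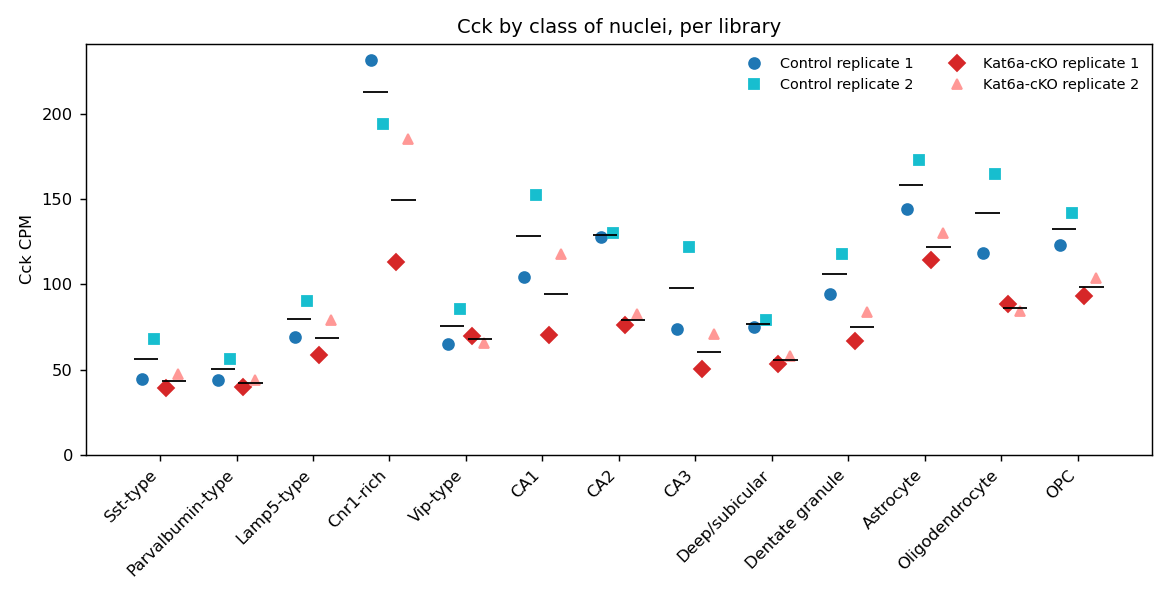
Cck level (CPM, linear axis from 0) in 13 classes of nuclei, 1 point per library, with a line at the mean of the 2 libraries of each group. The 2 Kat6a-cKO points lie below the 2 Control points in CA2, CA3, deep-layer, dentate granule, Cnr1-rich and Parvalbumin-type nuclei. The same holds in astrocytes, oligodendrocytes and oligodendrocyte precursors. The groups overlap in CA1, Lamp5-type, Sst-type and Vip-type nuclei. In Parvalbumin-type nuclei the gap is narrow, at 44.7 TMM-scaled CPM in Control replicate 1 and 43.7 in Kat6a-cKO replicate 2. The classes of a library share its free RNA and are not separate observations, and the lack of overlap is a description only.

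Npy was tested in 10 fits and had a negative log2 fold change in each, from −0.75 to −0.12, with none past the threshold. In dentate granule nuclei it was at 6.70 and 6.96 CPM in the Control libraries and 4.56 and 4.64 CPM in the Kat6a-cKO libraries, without overlap (−0.55 ± 0.13, edgeR adjusted p 0.153), and its level there was 0.77 times that expected from free RNA. In Lamp5-type nuclei, where Npy averaged 10.5 times the level expected from the free RNA share, it was at 77.5 and 57.8 CPM in the Control libraries and 35.3 and 52.3 CPM in the Kat6a-cKO libraries, also without overlap (−0.63 ± 0.19, adjusted p 0.380; 0.0198% of 10083 genes called). Without Control replicate 2 the Lamp5-type log2 fold change was −0.82, and without Kat6a-cKO replicate 1 it was −0.37. In Sst-type nuclei the libraries overlapped (−0.12 ± 0.35, adjusted p 0.985; 0% of 9435 genes called).

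Pdyn was tested in 4 fits, with log2 fold changes of −1.39 to −0.31 and none past the threshold. In dentate granule nuclei, its main class, it had a log2 fold change of −0.31 ± 0.14 (edgeR adjusted p 0.535), and the levels given above did not overlap. In all nuclei it was at 3.31 and 3.71 CPM in the Control libraries and 2.16 and 2.44 CPM in the Kat6a-cKO libraries (−0.59 ± 0.13, adjusted p 0.178). Dentate granule nuclei, which held 84.06% to 86.10% of the Pdyn counts, were 45.03% and 43.00% of the nuclei in the Control libraries and 38.40% and 36.84% in the Kat6a-cKO libraries, and their part in the value over all nuclei was not tested. In inhibitory nuclei the log2 fold change was −1.39 ± 0.49 (adjusted p 0.581), from 15 and 14 Pdyn counts in the Control libraries and 6 and 5 in the Kat6a-cKO libraries, at 0.97 to 1.85 times the level expected from free RNA. In CA1 it was −1.25 ± 0.39 (adjusted p 0.459), from 18 and 27 counts in the Control libraries and 10 and 8 in the Kat6a-cKO libraries, at 0.43 to 1.18 times the expected level. Neither pair of groups overlapped in TMM-scaled CPM. Sst was tested in all 15 fits, with log2 fold changes of −0.60 to 0.25, of which 12 were negative. In Sst-type nuclei it had a log2 fold change of −0.40 ± 0.16 (adjusted p 0.954), with the Kat6a-cKO libraries below the Control libraries. Without Kat6a-cKO replicate 2 the value was −0.69, and without Kat6a-cKO replicate 1 it was −0.14. In all inhibitory nuclei Sst was at −0.36 ± 0.12 (edgeR adjusted p 0.562, with 4 of 14664 genes called, 0.0273%). With Kat6a-cKO replicate 2 left out it was −0.60, and with Kat6a-cKO replicate 1 left out it was −0.15.

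In Vip-type nuclei no member passed the threshold, and the signs of the values differed. Vip had a log2 fold change of −0.18 ± 0.18 (edgeR adjusted p 0.935; 0% of 7707 genes called) with overlapping libraries, and Tac2 0.13 ± 0.48 (adjusted p 0.991). Penk was at −0.78 ± 0.31 (adjusted p 0.745) and Crh at 0.81 ± 0.49 (adjusted p 0.879), each without overlap between the groups. In Parvalbumin-type nuclei Tac1 was at −0.02 ± 0.23 and Cort at −0.49 ± 0.36 (both with an adjusted p of 0.995 or more; 0% of 10777 genes called).

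In all nuclei, the 10 members had a median log2 fold change of −0.31, against 0.00 over all 21837 genes tested, and 0 of 10 were called (14 genes called, 0.0641%). The groups did not overlap, with Kat6a-cKO lower, for 4 of the 10 members, Cck, Npy, Pdyn and Sst, on the TMM scale, and for 21.1% of all genes. In glial nuclei, Cck and Sst passed the filter and 0 values were called, with 0.0312% of genes called in astrocytes, 0.0129% in oligodendrocytes and 0.391% in oligodendrocyte precursors. Cck had a log2 fold change of −0.35, −0.69 and −0.41 in these classes, without overlap between the groups. Its level there was 0.54, 0.42 and 0.21 times that expected from free RNA.

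**Figure D5:**
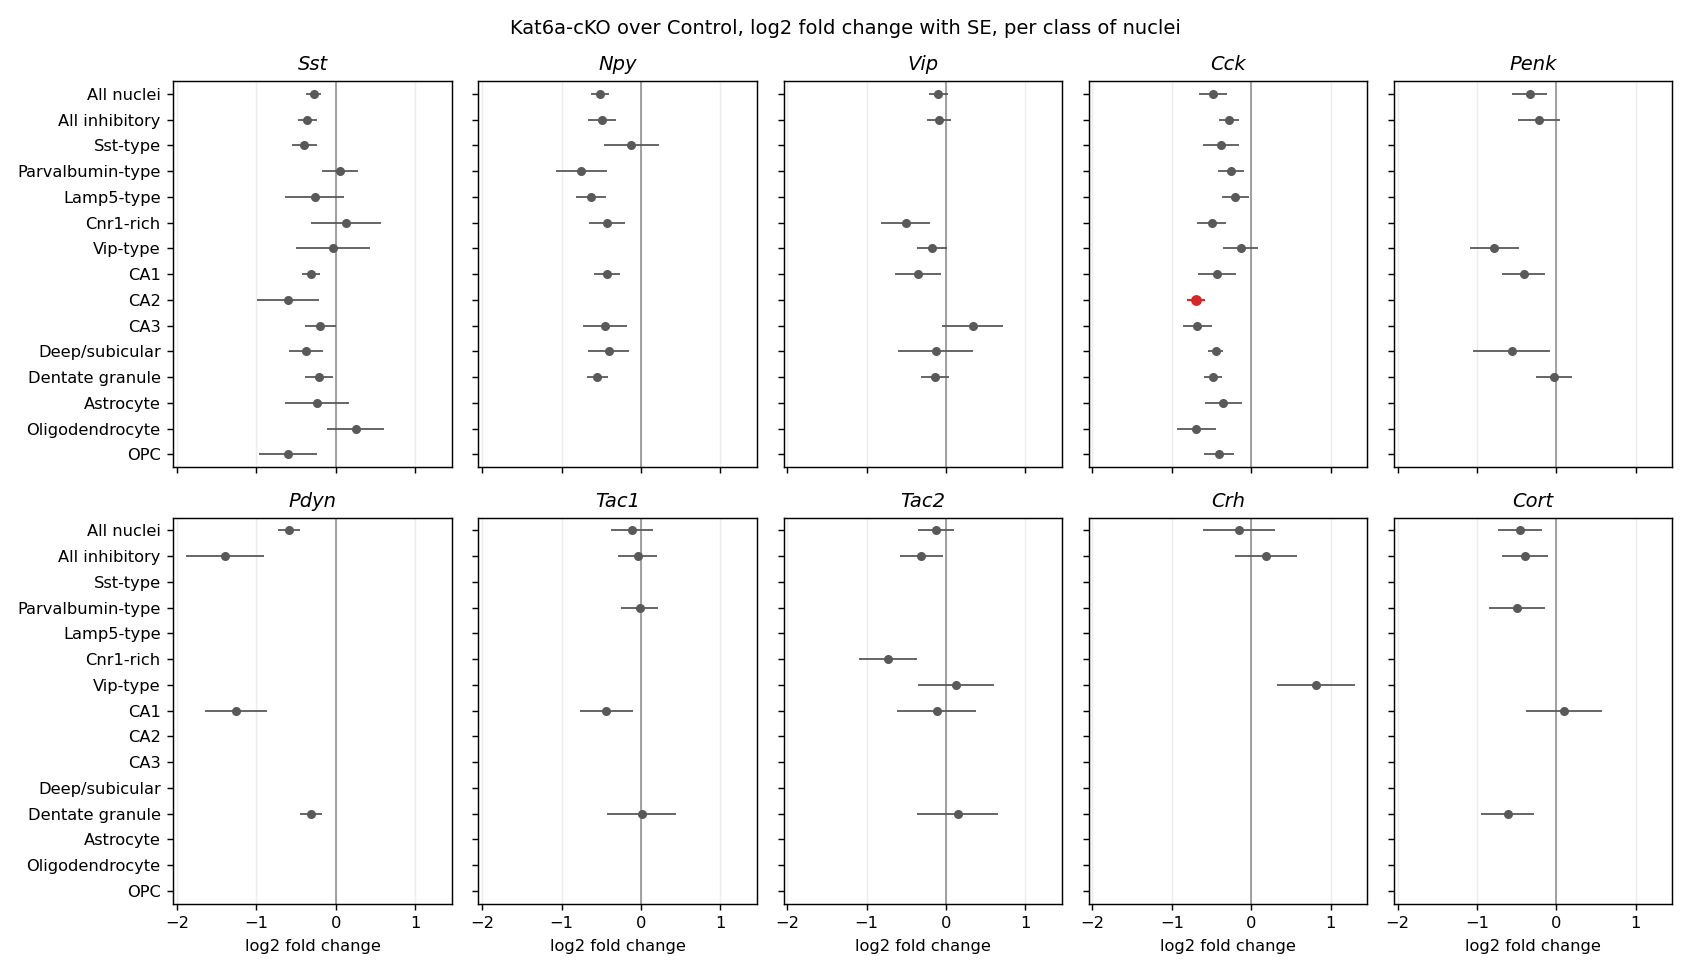
Log2 fold change of Kat6a-cKO over Control with its standard error from the edgeR fits, for the members that passed the filter in each class; red marks an adjusted p under 0.05. Cck in CA2, at −0.69, is the marked value, and the Cck and Npy points all lie left of 0.

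Whether a member's change with the genotype differed from class to class was asked with an interaction term for class and genotype, the library being a block. None of 37 values passed the threshold in edgeR, and 6 (16.2%) had an unadjusted p under 0.05, against 5.74% of all values in these 4 fits. The smallest p was that of Cck in CA3 against inhibitory nuclei, a difference of −0.41 ± 0.11 in log2 fold change (edgeR p 0.00254, adjusted p 0.483; 0.0247% of genes called). The shares of genes called were 0.0698% for CA3 against CA1, 0.12% for CA3 against dentate granule nuclei and 0.0385% for CA1 against dentate granule nuclei.

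Genes that receive or process the peptides were counted from lists of 21 receptors and 14 genes of processing and dense-core vesicles. Of 108 receptor values, 0 were called by edgeR and 15 (13.9%) had an unadjusted p under 0.05; of 192 processing values, 0 were called and 32 (16.7%) had an unadjusted p under 0.05, beside the 7.39% over all genes. DESeq2 called 3 of the 300 values of both lists (1.00%), beside 0.494% of all values. Their median log2 fold changes were −0.08 and −0.05. The smallest p was that of Npy2r, a receptor of neuropeptide Y, in CA3, at 15.4 and 17.8 TMM-scaled CPM in the Control libraries and 9.79 and 11.7 in the Kat6a-cKO libraries (−0.63 ± 0.14, edgeR adjusted p 0.198). Pcsk1n, which encodes an inhibitor of the prohormone convertase, was at 50.3 and 55.3 CPM in the Parvalbumin-type nuclei of Control and 32.8 and 36.2 in those of Kat6a-cKO on the same scale (−0.61 ± 0.16, adjusted p 0.745). Cadps2, which acts in dense-core vesicle exocytosis, was at 389 and 377 CPM in all nuclei of Control and 471 and 445 in Kat6a-cKO (0.26 ± 0.06, adjusted p 0.164).

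Other neuropeptide genes, 22 in a list, gave 64 values in the fits, of which 0 were called by edgeR and 7 (10.9%, beside 7.39% over all genes) had an unadjusted p under 0.05. The smallest p were those of Nts, the neurotensin gene, in dentate granule nuclei (−1.06 ± 0.35, edgeR adjusted p 0.320), Prok2 in CA1 (−1.13 ± 0.38, adjusted p 0.502) and Gal, the galanin gene, in all nuclei (−0.94 ± 0.32, adjusted p 0.358), each under 2.5 CPM in every library.

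The share of inhibitory nuclei, which include the highest named class of every member but Pdyn, was 7.22% ± 0.186 (SD, n = 2) in Control and 8.33% ± 0.563 in Kat6a-cKO. The exact permutation test, two-sided, gave p = 0.33, the smallest that 2 against 2 libraries allow.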

How the data were processed

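The submitters deposited 1 matrix of UMI counts per library, and their processing notes name Seurat 4.0.1 and mm10; the aligner and the counting strand are not given in the sources used here. The values used are the counts as deposited by the authors. Barcodes with at least 5000 UMIs were taken as nuclei, doublets called by Scrublet (3.05% to 3.77% per library) were removed, and nuclei were clustered with scanpy 1.11.5 and leidenalg 0.10.2 (Leiden resolution 1), leaving out 104 genes that include the members. Classes were named from marker genes. Counts were summed per library and class and tested with edgeR 4.0.16 (TMM, filterByExpr, quasi-likelihood test, Benjamini-Hochberg over all genes of a fit, threshold 0.05) under R 4.3.3. CPM in the text is unscaled unless TMM is named. Barcodes of 100 to 900 UMIs gave the free RNA profile.

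The members and gene lists were chosen with earlier results of these data known. All 10 members were named, with the 3 genes most like each (1 of those is not reported here), and of the other lists those past the threshold or else the 3 with the smallest p. On simulated counts with a log2 change of 1, the edgeR step called 137 of 190 changed genes in inhibitory nuclei, 102 of 184 in Vip-type and 156 of 195 in dentate granule nuclei. Alternatives were DESeq2 1.42.0, RLE size factors, no filter, a replicate block, leaving out each library, subtraction of free RNA, a minimum of 10000 UMIs, doublets kept and a Leiden resolution of 2.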

Additional observations from a re-analysis of the deposited data

How the results depend on the processing

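With 1 member value called in the comparison of genotypes, the alternatives gave 3 calls with DESeq2, 8 with no filter on low counts, 8 with the replicate block (10.4% of member values), 0 with a minimum of 10000 UMIs, 0 with doublets kept, 0 at a Leiden resolution of 2, and 0 to 7 when each library was left out; every call was lower in Kat6a-cKO. RLE size factors and subtraction of free RNA gave 1 call each. The share of all genes called rose as well, from 0.0745% to 0.494% with DESeq2, 0.627% with no filter, 1.03% with the block and 0.127% to 0.771% without each library. For receptor and processing genes, with 0 calls, the counts were 3 with DESeq2, 10 with no filter, 10 with the replicate block, 1 with doublets kept and 0 to 15 without each library, the last being 4.81% of their values. Between classes, with 0 calls, no filter gave 1 and leaving out a library 0 to 1, with 0.0637% of all genes called, 0.476% with no filter and 0.234% to 0.893% without each library. A fit without a library leaves 1 library in its group, which is assumed to vary like the others. The labels do not say that equal replicate numbers mark a shared animal or batch, and the deviations of same-numbered libraries correlated at 0.082 to 0.148. The 7 calls gained with the block were Cck in all nuclei, CA3, deep-layer, dentate granule and Cnr1-rich nuclei, and Npy and Pdyn in all nuclei (edgeR adjusted p 2.21e-05 to 0.0371).

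Of the alternatives for single member values, 282 kept direction and side of the threshold, 25 passed it, 5 lost it and 8 changed sign. After subtraction of free RNA by the upper estimate of its share, Cck had a log2 fold change of 8.95 in dentate granule nuclei, where both Control libraries were at 0. In inhibitory nuclei it was 1.27, where 78 and 65 counts remained in the Control libraries and 77 and 273 in the Kat6a-cKO libraries. Leaving out a library changed the sign of 5 values: without Control replicate 2, Cck was at 0.0014 in Lamp5-type, 0.054 in Vip-type and Vip at 0.31 in Cnr1-rich nuclei, and Npy at 0.73 in Sst-type nuclei; without Kat6a-cKO replicate 1, Npy was at 0.30 in Sst-type and Vip at 0.17 in Vip-type nuclei. At the other end, the log2 fold change reached −0.40 for Cck in Lamp5-type and −0.64 for Npy in Sst-type and −0.59 for Vip in Vip-type nuclei without Kat6a-cKO replicate 2, and −0.31 for Cck in Vip-type and −0.96 for Vip in Cnr1-rich nuclei without Control replicate 1. For these values the cause was not tested. Co-occurrence was 32.7% with at least 1 UMI and 1.53% with at least 5. The name of the highest class remained for 9 of 10 members at a minimum of 10000 UMIs, the exception being Tac1 (Lamp5-type, 3.92 CPM). The cluster named Parvalbumin-type at that minimum held 24 to 29 nuclei per library, with 0 to 3 Tac1 counts. They are too few to hold all the nuclei given that name in the clustering used above, most of which pass the minimum. Which nuclei they are was not tested. For Tac1 and Cort the order at that minimum therefore does not show whether the highest class changed. The level in the highest class moved by more than the spread between libraries for Tac1 (3.50 CPM) and Cort (5.87 CPM) at that minimum and for Cck (126 CPM) after subtraction of free RNA. With 2 libraries a group and few counts per inhibitory type, the absence of a call does not show the absence of a difference. The simulation used a log2 change of 1, and the detection of smaller differences was not tested.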

Other observations

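Sst-type nuclei held 23.72% to 30.82% of a library's Sst counts in nuclei. Dentate granule nuclei held 16.04% to 24.88% of them, at a level 0.65 to 0.84 times that expected from free RNA, which is an upper estimate. Lamp5-type nuclei held 9.83% to 14.35% of the Npy counts, and dentate granule nuclei 19.36% to 27.42%, at 0.67 to 0.83 times the expected level. Vip-type nuclei held 41.27% to 59.60% of the Vip counts. A cluster of 48 to 53 inhibitory nuclei per library that met no marker rule and stayed unnamed held Sst at 207 and 314 CPM in the Control libraries and 203 and 283 CPM in the Kat6a-cKO libraries, the highest level outside the Sst-type among clusters of at least 20 nuclei in every library.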
